A study of Mus musculus with 12 samples.

Results

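Trbv5, written V5 in the clonotype lists, is a variable gene of the mouse T cell receptor β chain. All clonotypes of the β chain constant region (TRBC) whose V region was V5 were taken, 34083 of 968766 listed in 12 libraries. A clonotype is defined by its CDR3 base sequence and the V and J segments assigned to it, and is counted in unique molecular identifiers (UMIs), each of which marks 1 cDNA molecule. V5 was selected on measured values, since it held the largest share of TRBC UMIs in the control IgG tumors and differed most between BF10 and control tumors. The tumor UMI shares below are therefore given as a description, with no test. No TRBC row named V5 together with another V region (0 rows).

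The study collected CD8+ T cells with MACS microbeads from the tumor, the spleen and the tumor-draining lymph node (tdLN) of wild-type mice. The methods name C57BL/6J mice bearing the mouse oral cancer line MTCQ1-2. The mice received control IgG, IL-10-Fc (interleukin-10 joined to an antibody Fc part), αCSF1R (an antibody that blocks the receptor of colony-stimulating factor 1) or BF10 (interleukin-10 joined to that antibody). The labels give each agent at an equivalent dose of 30 mg/kg, given 3 times at intervals of 3 days. Each library was a mix of 3 samples of 1 treatment and tissue, and there was 1 library per treatment and tissue, so treatments had no replicates. All groups shared the tumor line and the genotype. Every sample is labelled as CD8 T cells, but the titles of the tumor and spleen samples name CD8 and those of the tdLN samples do not. The libraries hold only receptor transcripts, so the labelled cell type could not be checked against marker genes of CD8+ T cells. TRBC depth ran from 32784 UMIs (αCSF1R tumor) to 210616 UMIs (αCSF1R tdLN). The 95% Wilson intervals below cover counting error only, as a T cell yields several UMIs, and neither animals nor library preparation enter them. Of the libraries, 2 stood apart. In the tdLN libraries of αCSF1R and BF10, 10.4% and 8.26% of TRBC UMIs had at least 7 reads, against 35.3% to 69.6% in the other 10, and they held 0.312 and 0.274 α chain UMIs per TRBC UMI, against 0.672 to 0.816.

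A β chain gene is assembled in each developing T cell from 1 V, 1 D and 1 J segment. Bases are trimmed from the segment ends and others are added between them, and the resulting junction encodes the CDR3, the loop that lies over the peptide bound to an MHC molecule. T cells that descend from 1 ancestor carry the same junction, so a clonotype with many UMIs stands for an expanded clone or for cells rich in receptor RNA, which cannot be told apart in bulk libraries.

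Trbv5 lies on chromosome 6 of GRCm38 (chr6:41062332-41062803, plus strand), 471061 bases before Trbj1-1. The germline parts that enter its CDR3 are shown first, because the trimming and the added bases of each clonotype are read against them, with no capitals as nothing is added.
Trbv5, from the conserved cysteine: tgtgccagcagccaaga
Trbj1-2, to the conserved phenylalanine: caaactccgactacaccttc
Trbj2-7, to the conserved phenylalanine: ctcctatgaacagtacttc
Trbd1: gggacagggggc
Trbd2: gggactgggggggc

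The V5 clonotype with the most UMIs in each of several libraries is shown next, in the same orientation. Capitals mark the bases that matched neither the Trbv5 end nor the J start, which hold the D part and the added bases.
Control IgG tumor, Trbj1-2: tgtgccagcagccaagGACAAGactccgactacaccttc
IL-10-Fc tumor, Trbj2-3: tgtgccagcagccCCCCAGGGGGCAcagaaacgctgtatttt
αCSF1R tumor, Trbj2-1: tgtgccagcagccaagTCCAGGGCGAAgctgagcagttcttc
BF10 tumor, Trbj2-1: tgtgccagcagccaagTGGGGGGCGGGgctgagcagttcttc
BF10 spleen, Trbj1-4: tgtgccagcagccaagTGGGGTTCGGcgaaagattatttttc
αCSF1R spleen, Trbj1-3: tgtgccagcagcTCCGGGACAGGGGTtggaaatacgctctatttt
The first of these, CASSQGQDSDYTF in residues, kept 16 of the 17 Trbv5 bases, had 6 bases between V and J, and kept 17 of the 20 Trbj1-2 bases. The V5 clonotypes of its own library averaged 11.7 such middle bases as listed, and 10.6 after merging of CDR3s 1 base apart, which is described below.

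In tumors, V5 took a large part of the β chain UMIs under control IgG and αCSF1R and a small part under IL-10-Fc and BF10. The share of TRBC UMIs was 14.0% for control IgG (14572 UMIs, 95% interval 13.8% to 14.2%) and 6.63% for αCSF1R (2175 UMIs, 6.37% to 6.91%). It was 2.53% for IL-10-Fc (3295 UMIs, 2.45% to 2.62%) and 2.43% for BF10 (4263 UMIs, 2.36% to 2.51%). V5 thus ranked 1st among V regions by UMIs in the control IgG tumors, 4th in the αCSF1R tumors and 16th in the IL-10-Fc and BF10 tumors. In the spleens the share was highest under BF10 (3.24%), followed by αCSF1R (2.83%), control IgG (2.70%) and IL-10-Fc (2.40%). In the tdLNs it was 4.49% under αCSF1R, 4.47% under BF10, 4.35% under control IgG and 4.11% under IL-10-Fc. All 4 tdLN libraries lay above all 4 spleen libraries, and the tumor libraries lay on both sides of them.

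In the order of the 12 libraries, the control IgG tumor came first, then the αCSF1R tumor, the tdLNs, the BF10 spleen and the rest. This order is a description of 1 library each, and only the spread of counting is known. The counting intervals of neighbours overlapped among the tdLNs of αCSF1R, BF10 and control IgG. They also overlapped in a chain from the αCSF1R spleen through the control IgG spleen and the IL-10-Fc and BF10 tumors to the IL-10-Fc spleen.

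**Figure D1:**
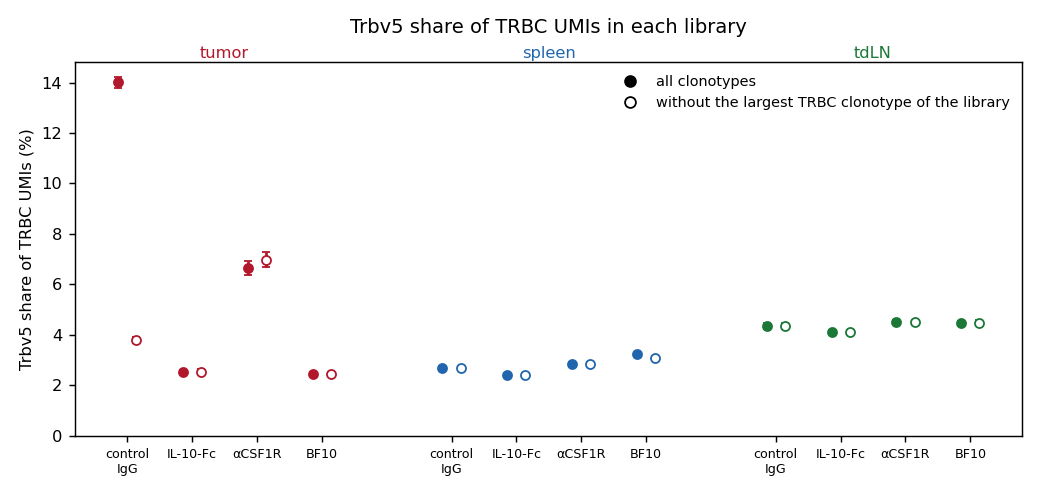
Trbv5 share of TRBC UMIs (%) in each of the 12 libraries, by tissue and treatment, with all clonotypes (filled) and without the largest TRBC clonotype of the library (open). Bars are 95% Wilson intervals, and the control IgG tumor library goes from 14.0% to 3.81%.

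1 clonotype made up most of the V5 UMIs of the control IgG tumors. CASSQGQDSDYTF with Trbj1-2 had 11032 UMIs, 75.7% of the V5 UMIs and 10.6% of the TRBC UMIs (10.4% to 10.8%). The next V5 clonotype had 452 UMIs, 24.4 times fewer. Without the largest TRBC clonotype of each library, the V5 share was 6.98% under αCSF1R (6.71% to 7.27%), 3.81% under control IgG (3.69% to 3.93%), 2.54% under IL-10-Fc (2.46% to 2.63%) and 2.44% under BF10 (2.37% to 2.51%). The αCSF1R tumor library then held the highest share, from a library whose largest TRBC clonotype was not V5. Without the largest V5 clonotype of each tumor library, its share was 5.36%, against 3.81% under control IgG. The control IgG share was 5.75 times the BF10 share with that clonotype (5.56 to 5.95) and 1.56 times without it (1.49 to 1.63).

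The αCSF1R tumors held V5 UMIs in several clones rather than in one. Their largest V5 clonotype, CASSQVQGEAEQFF with Trbj2-1, had 442 UMIs (1.35% of TRBC UMIs), the second had 326, and the 10 largest held 79.2% of V5 UMIs. In the IL-10-Fc tumors the largest, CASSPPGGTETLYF with Trbj2-3, had 379 UMIs (0.291%), and the 10 largest held 23.2%. In the BF10 tumors the largest, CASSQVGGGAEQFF with Trbj2-1, had 90 UMIs (0.0514%), and the 10 largest held 6.90%. The tumor libraries thus ran from V5 UMIs in few clonotypes to V5 UMIs spread over many. The mean was 35.0 UMIs per V5 clonotype for control IgG and 18.0 for αCSF1R, and 2.54 for IL-10-Fc and 1.90 for BF10. The other V regions gave 12.9 under αCSF1R, 9.89 under control IgG, 2.37 under IL-10-Fc and 1.94 under BF10.

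V5 clonotypes with at least 0.1% of TRBC UMIs numbered 10 in the αCSF1R tumors, 6 in the control IgG tumors, 2 in the IL-10-Fc tumors and 0 in the BF10 tumors. Over all TRBC clonotypes, the share past that limit in the same order was 3.05% (76 clonotypes), 0.803% (76), 0.042% (23) and 0.00332% (3). The V5 counts were 10 of 121, 6 of 416, 2 of 1296 and 0 of 2245 clonotypes, and they rest on the UMI counts that selected V5, so nothing is read from them. The smallest clonotype inside the limit had 48, 108 and 197 UMIs for αCSF1R, control IgG and IL-10-Fc. The largest outside it had 26, 93 and 71 UMIs, and 90 UMIs for BF10.

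**Figure D2:**
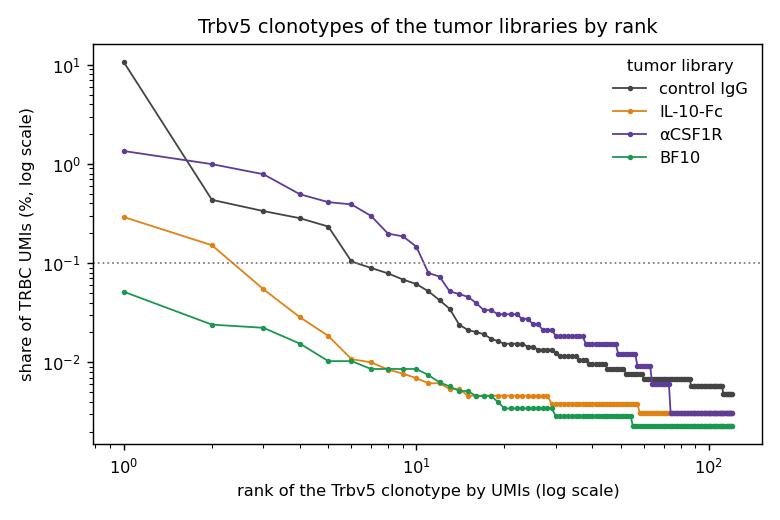
Share of TRBC UMIs (%, log scale) of the V5 clonotypes of each tumor library against their rank by UMIs (log scale), with the limit of 0.1% as a dotted line. The control IgG line starts at 10.6% and falls to 0.434% at the second clonotype, while αCSF1R starts at 1.35% and declines more slowly.

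The large V5 clonotypes differed in sequence between treatments. Among the 18 of them, 16 were listed under their own treatment alone, as were 78.1% of all 178 TRBC clonotypes past that limit in tumors. The others, both from αCSF1R tumors, were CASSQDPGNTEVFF with 1 UMI in 1 library of another treatment and a clonotype of 15 residues with 7. Of the 18, 8 were listed in the tdLN of the same treatment and 0 in the spleen of the same treatment. Over all 178 these shares were 53.4% and 17.4%. The V5 clonotypes are among the 178, and nothing particular to V5 is read from these counts. The control IgG tumor clone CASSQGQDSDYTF had 56 UMIs in the control IgG tdLN (0.0450% of TRBC UMIs, 0.0346% to 0.0584%) and 0 in the other 10 libraries. A count of 0, with the limit taken as 3 UMIs, allowed a share of up to 0.00915% in the αCSF1R tumor library, the shallowest, and of up to 0.00196% in the control IgG spleen. The αCSF1R tumor clone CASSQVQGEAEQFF had 4 UMIs in the αCSF1R tdLN, and the BF10 tumor clone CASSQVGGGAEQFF had 1 in the BF10 tdLN. Some of the largest V5 clonotypes of the spleen and tdLN libraries were also listed in a second tissue of the same treatment, and others were not. The largest V5 clonotype of the BF10 spleen, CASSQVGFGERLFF with Trbj1-4, had 258 UMIs there and 50 in the BF10 tdLN, where it was also the largest V5 clonotype. The largest of the αCSF1R spleen, shown above by its bases, had 99 UMIs there and 13 in the αCSF1R tdLN. Those of the control IgG spleen (8 UMIs) and of the αCSF1R (117), control IgG (100) and IL-10-Fc (52) tdLNs were listed in 1 library only. That of the IL-10-Fc spleen (14 UMIs) was listed again only in the BF10 tumors, with 1 UMI.

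Residue patterns were looked at in these 18 clonotypes after their sequences were seen, so they carry no test. 4 of them began with CASSPPG: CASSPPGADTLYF and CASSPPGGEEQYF (control IgG), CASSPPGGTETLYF (IL-10-Fc) and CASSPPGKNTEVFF (αCSF1R). Among all V5 clonotypes of the 8 spleen and tdLN libraries that start was seen in 0.672% to 1.72%. Another 7 had glutamine at residues 5 and 7, as in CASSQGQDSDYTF and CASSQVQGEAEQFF, against 2.88% to 4.47% of spleen and tdLN V5 clonotypes. Both patterns came from 3 of the 4 treatments, and BF10 tumors had 0 clonotypes among the 18. Among the remaining tumor V5 clonotypes, with CDR3s 1 base apart merged, the CASSPPG start was seen in 1 of 73 under αCSF1R, 9 of 325 under control IgG, 28 of 2239 under BF10 and 15 of 1284 under IL-10-Fc. In the same sets glutamine at both residues was seen in 6 of 73 under αCSF1R, 20 of 325 under control IgG, 101 of 2239 under BF10 and 52 of 1284 under IL-10-Fc.

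Tumor V5 clonotypes were found in the tdLN of the same treatment at shares close to those of all tumor TRBC clonotypes. For control IgG, 18 of 416 V5 clonotypes (4.33%) were listed there, against 5.18% of all TRBC clonotypes. Under αCSF1R it was 17 of 121 (14.0%) against 13.2%, under BF10 111 of 2245 (4.94%) against 5.48%, and under IL-10-Fc 64 of 1296 (4.94%) against 4.65%. The αCSF1R pair thus shared the largest part of its tumor V5 clonotypes, and its tumor library was also the smallest. As a share of the tdLN V5 clonotypes, the same overlaps were 0.605%, 0.259%, 1.64% and 1.51%. With the tdLNs of the other treatments, the αCSF1R tumor library shared 2.48% to 3.31% of its V5 clonotypes, the BF10 tumor library 2.27% to 4.14%, the control IgG tumor library 2.64% to 4.33% and the IL-10-Fc tumor library 3.09% to 5.63%. The same-treatment share lay above that range for αCSF1R and BF10, at its upper end for control IgG and inside it for IL-10-Fc. All TRBC clonotypes of these tumors gave 4.25% to 6.10% (αCSF1R), 2.67% to 5.001% (BF10), 4.93% to 6.0004% (control IgG) and 2.88% to 5.29% (IL-10-Fc) with the tdLNs of other treatments. Their same-treatment share thus also lay above the range for αCSF1R and BF10 and inside it for the others, so the pattern was not particular to V5.

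Fewer tumor V5 clonotypes were listed in the spleen of the same treatment, whose V5 list was also shorter than that of the tdLN. The share was 7.44% under αCSF1R, 3.70% under IL-10-Fc, 2.88% under control IgG and 2.49% under BF10, against 6.74%, 5.06%, 5.32% and 3.59% of all TRBC clonotypes. With the spleens of other treatments, V5 gave 0.826% to 3.31%, 2.24% to 2.93%, 1.44% to 2.16% and 1.60% to 2.81% in that order. The same-treatment share lay above this range under 3 treatments and inside it under BF10, and these shares rest on 9 to 56 V5 clonotypes. All TRBC clonotypes gave 3.97% to 4.73%, 3.04% to 3.83%, 3.35% to 4.43% and 2.65% to 4.08% with the spleens of other treatments. Their same-treatment share also lay above the range under 3 treatments and inside it under BF10, so this pattern was not particular to V5. As a share of the spleen V5 clonotypes, same-treatment overlaps were 0.489% (αCSF1R), 1.88% (IL-10-Fc), 0.515% (control IgG) and 2.06% (BF10). These values lay above those of the tdLNs except under control IgG. The spleens listed 1839 to 2717 V5 clonotypes and the tdLNs 2975 to 6787.

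Close relatives of the dominant tumor CDR3 were searched for among the V5 clonotypes of every library, as T cells that see 1 peptide can carry similar CDR3s. In the control IgG tumors, 14 further base sequences encoded the same 13 residues, with 70 UMIs in all. A further 41 CDR3s differed from it at 1 residue, with 124 UMIs in all. All 55 carried Trbj1-2 and differed from the dominant sequence by 1 base. Together they had 194 UMIs, 1.76% of the UMIs of the dominant clonotype, and the largest of the 41 had 14. The dominant CDR3 with its relatives came to 11226 UMIs, 10.8% of TRBC UMIs (10.6% to 11.0%).

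The relatives were spread along the CDR3. The leading 5 were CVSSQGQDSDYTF with 14 UMIs, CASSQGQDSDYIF with 11, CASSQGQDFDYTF with 7, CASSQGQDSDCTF with 6 and 1 with an undetermined first residue and also 6. Each of the 13 positions was changed in at least 1 of the CDR3s, and 10 changed the first cysteine or the last phenylalanine, the conserved residues that bound the CDR3. Of the 117 single-base changes that the dominant sequence allows, 55 were listed. The next 9 TRBC clonotypes of this library by UMIs, none of them V5, had 11 to 32 such 1-base neighbours each. In 7 of these 9, no neighbour exceeded the clonotype's UMIs divided by 10, and the neighbours came to 1.32% to 2.14% of its UMIs. How these neighbours arose was not tested. In the other 11 libraries only 3 CDR3s within 1 residue of the dominant one were listed besides it, with 1 UMI each, in the BF10 spleen, the control IgG tdLN and the αCSF1R tdLN. The same residues with another V region were listed once, with Trbv29 and 2 UMIs in the control IgG tdLN.

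Counted by clonotypes, V5 was less uneven among tumors. It made up 4.85% of TRBC clonotypes under αCSF1R (4.08% to 5.77%), 4.39% under control IgG (4.00% to 4.83%), 2.49% under BF10 (2.39% to 2.59%) and 2.37% under IL-10-Fc (2.24% to 2.50%). The 1-base neighbours enter these counts. When CDR3s 1 base apart that differed at least 10-fold in UMIs were merged, 85 of 416 V5 clonotypes were absorbed for control IgG and 38 of 121 for αCSF1R, against 10 of 1296 for IL-10-Fc and 6 of 2245 for BF10. The shares were then 3.78% (3.40% to 4.20%), 3.91% (3.17% to 4.83%), 2.36% (2.23% to 2.49%) and 2.48% (2.38% to 2.59%) for control IgG, αCSF1R, IL-10-Fc and BF10. The merged shares of the control IgG and αCSF1R tumors were the higher ones, from 1 library each and with no test.

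The clearest tissue difference was between lymph node and spleen. In the tdLNs, V5 made up 4.49% of TRBC clonotypes under BF10, 4.33% under αCSF1R, 4.16% under control IgG and 4.00% under IL-10-Fc (mean 4.24% ± 0.213, SD, n = 4 libraries). In the spleens it made up 3.14%, 2.86%, 2.92% and 2.54% in the same order (mean 2.86% ± 0.247, SD, n = 4). The tdLN share was higher under all 4 treatments, by 1.38 percentage points on average and by 1.23 to 1.47 points within a treatment. The exact two-sided sign-flip test over the 4 treatments gave p = 0.125, the smallest it can give with 4 pairs. Without the pairing by treatment, the exact two-sided permutation test gave p = 0.0286, which is the smallest of its 70 arrangements. That test ignores the matching of tissues by treatment and is not adjusted for the 22 V regions compared below, so no conclusion is drawn from it.

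The UMI shares without the largest clonotype of each library showed the same order, with 4.48%, 4.50%, 4.36% and 4.12% in the tdLNs and 3.07%, 2.84%, 2.70% and 2.40% in the spleens, under BF10, αCSF1R, control IgG and IL-10-Fc. The mean difference was 1.61 points, higher in the tdLN under 4 of 4 treatments, and the exact sign-flip test again gave p = 0.125. The tdLN libraries of αCSF1R and BF10 had few reads per UMI, as given above. With control IgG and IL-10-Fc alone, the differences were 1.35 points of clonotypes and 1.69 points of UMIs. Those treatments held the tdLN libraries with read depth like the rest.

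Of the 22 V regions compared, 11 had a higher clonotype share in the tdLN under all 4 treatments and 6 a lower one. V5 had the largest mean difference upward in percentage points, just ahead of Trbv26 (1.35 points) and Trbv3 (1.34 points). Trbv29 fell by 4.33 points. Relative to the spleen share V5 did not lead, with means of 4.24% in tdLNs against 2.86% in spleens. Trbv31 (2.80% against 1.62%) and Trbv2 (2.42% against 1.57%) rose more on that scale. The V regions whose clonotype shares followed V5 most closely over the 12 libraries were Trbv20 (Pearson r = 0.96), Trbv2 (r = 0.92) and Trbv13-2 (r = 0.67). The 12 points share tissues, and shares within a library depend on each other, so these are descriptions.

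γ and δ chain UMIs, like the V5 share, were higher in the tdLNs than in the spleens. They made up 4.96% to 6.34% of receptor UMIs in the tdLNs and 0.677% to 2.30% in the spleens. In tumors they made up 4.27% for control IgG and 8.93% for αCSF1R, against 0.873% for IL-10-Fc and 0.898% for BF10. The 6 libraries of the tdLNs and of the control IgG and αCSF1R tumors had merged V5 clonotype shares of 3.78% to 4.49%. The other 6 had 2.36% to 3.14%. This split was made with the V5 shares known, so nothing is read from the gap. The αCSF1R tumor library had the most γ and δ UMIs, but its merged V5 share of 3.91% lay below the tdLNs (3.99% to 4.49%). The tdLN libraries of αCSF1R and BF10 also held few α chain UMIs, as given above. The part of other T cell types in the V5 share was not tested. The tdLN titles leave out CD8, while those of the control IgG and αCSF1R tumors name it.

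**Figure D3:**
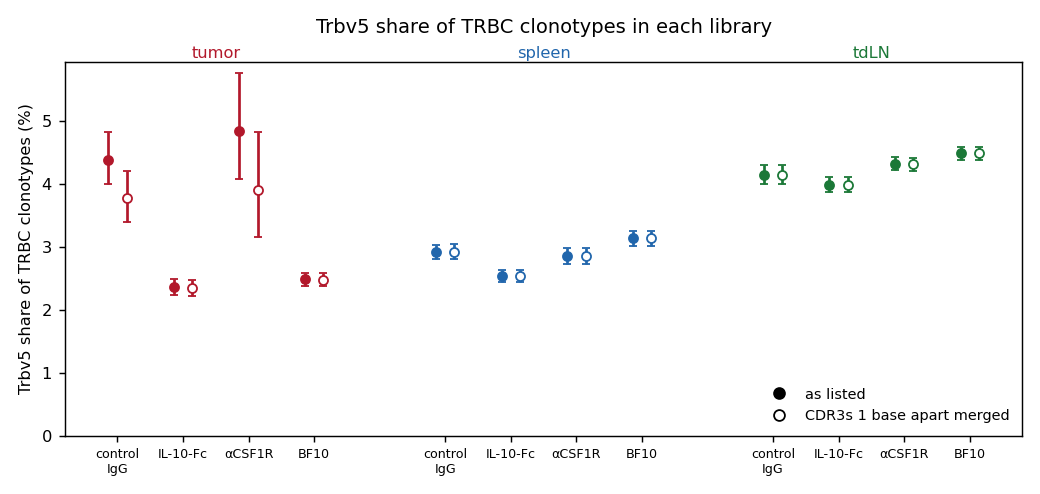
Trbv5 share of TRBC clonotypes (%) in each library, as listed (filled) and with CDR3s 1 base apart merged (open), with 95% Wilson intervals. The 4 tdLN libraries lie between 4.00% and 4.49%, above the spleen libraries at 2.54% to 3.14%, and merging lowers only the control IgG and αCSF1R tumor libraries visibly.

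V5 clonotypes joined every functional J region, and the largest share used Trbj2-7, the last J segment of the locus. It took 21.7% of V5 clonotypes on average over the 12 libraries (16.6% to 24.3%), against 20.8% of the clonotypes of other V regions. Trbj1-5 was the least used, with 2.63% (0.826% to 3.70%). The largest mean difference upward from the other V regions was at Trbj1-1, with 10.6% against 9.14%, and V5 was higher in 10 of 12 libraries. The αCSF1R tumor library alone had 20.7% there, and without it, a setting chosen after seeing the data, the mean difference was 0.726 points, below the 0.998 points at Trbj2-7. The largest difference downward was at Trbj1-2, with 4.59% against 5.92%, and V5 was lower in 11 of 12 libraries. Without the αCSF1R tumor library that difference was -0.875 points, and Trbj2-4 was then lowest with -1.46 points. Without the control IgG tumor library it was -2.64 points.

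The exception at Trbj1-2 was the control IgG tumor library, where the dominant clone and its neighbours lie. Trbj1-2 took 19.2% of V5 clonotypes there as listed and 8.16% after merging. In the spleens it took 3.02% to 4.38% and in the tdLNs 3.06% to 3.81%. By UMIs, Trbj1-2 held 77.4% of V5 in the control IgG tumors. In the αCSF1R tumors 0 of 121 V5 clonotypes used it, which allows a share of up to 2.48%.

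The Trbj2 cluster, the J segments after the second D segment, took 71.0% of V5 clonotypes in spleens (69.3% to 72.0%), 67.8% in tdLNs (65.5% to 69.8%) and 66.3% in tumors (57.0% to 71.7%). The tissues overlapped, and an exact permutation of tissues within treatments over 1296 arrangements gave p = 0.273 (0.528 after Benjamini-Hochberg adjustment over the J and length tests). The lowest value, 57.0%, was that of the control IgG tumor library. Against the other V regions the Trbj2 share of V5 differed by -0.170 points on average, positive under 2 of 4 treatments, with p = 1 in the exact sign-flip test. With 1-base neighbours merged, that difference was 0.526 points, so its sign was not settled.

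**Figure D4:**
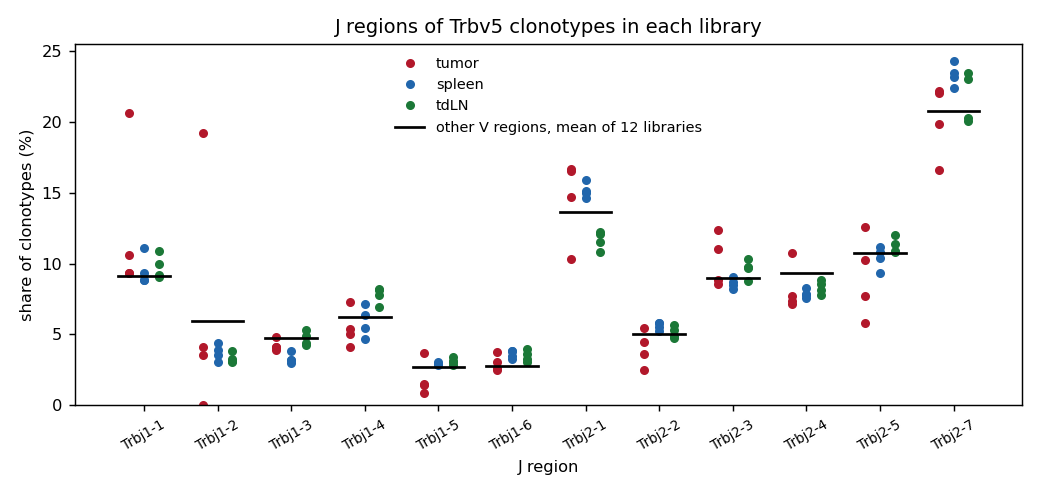
Share of V5 clonotypes (%) that used each J region, 1 point per library, coloured by tissue, with the mean over 12 libraries of the other V regions as a black line. The control IgG tumor library stands at 19.2% for Trbj1-2 and the αCSF1R tumor library at 20.7% for Trbj1-1.

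V5 CDR3s were longer than those of the other V regions in every library. Their mean length, from the conserved cysteine to the phenylalanine, was 14.5 residues over the 12 libraries against 13.9, a difference of 0.588 residues. It was positive in 12 of 12 libraries and ran from 0.276 (control IgG tumor) to 0.645 (control IgG spleen). Averaged over tissues it was 0.619 under IL-10-Fc, 0.616 under αCSF1R, 0.602 under BF10 and 0.516 under control IgG. The exact sign-flip test over the 4 treatments gave p = 0.125, its smallest value. The most frequent length was 15 residues for V5 (29.8% of clonotypes) and 14 for the other V regions (31.2%). CDR3s of 17 residues made up 4.82% of V5 clonotypes and 1.99% of the others.

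The length hardly varied among tissues, with 14.4 residues in tumors, 14.5 in spleens and 14.5 in tdLNs (exact permutation p = 0.528, 0.528 adjusted). The shortest mean, 14.2 residues in the control IgG tumors, was in the library where 29.1% of V5 clonotypes had 13 residues, the length of the dominant clone. After merging it was 15.7%, and the mean was 14.4 residues.

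**Figure D5:**
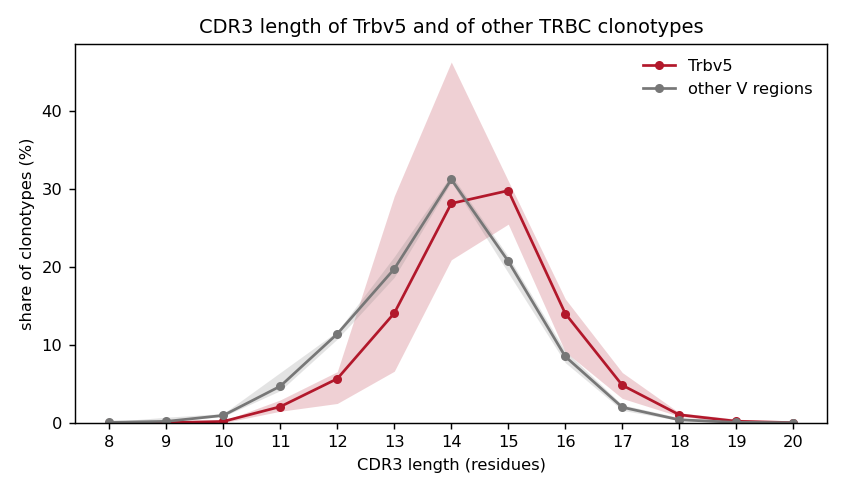
Share of clonotypes (%) against CDR3 length (residues) for V5 and for the other TRBC V regions, as the mean (line) and range (band) over the 12 libraries. The V5 curve is shifted to longer CDR3s, with its peak at 15 residues against 14, and its band is widest at 13 and 14 residues, where the 2 small tumor libraries lie apart.

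The V5 end was often trimmed. All 17 germline V bases were kept in 40.8% to 42.1% of tdLN V5 clonotypes, 37.5% to 39.5% of those in spleens and 22.3% to 37.7% of those in tumors. The fifth residue was glutamine, which the germline encodes, in 64.0% to 70.2% of V5 clonotypes. It was proline, which can arise when that codon is cut after its first base, in 17.2% to 22.0%. Between the V and J parts lay 10.6 bases on average, the most in the αCSF1R tumors (12.4). These values count the 1-base neighbours. After merging, 30.1% to 37.8% of tumor V5 clonotypes kept all V bases, and the middle bases averaged 10.4 to 10.6 in tumors, 10.3 to 10.5 in spleens and 10.01 to 10.2 in tdLNs.

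Most V5 CDR3s were private to a library. Of 25607 distinct V5 CDR3 residue sequences, 21796 (85.1%) were listed in a single library and 161 in 6 or more. The same shares over all TRBC CDR3s were not computed, so nothing particular to V5 is read from these counts. The most widely listed were 6 CDR3s found in 10 of 12 libraries each. CDR3s listed more widely were on average shorter and had fewer middle bases. The fall in middle bases was not steady, with 7.34 on average in 6 libraries and 8.08 in 8. CDR3s in a single library averaged 14.7 residues and 11.1 middle bases, and those in 10 libraries averaged 12.8 residues and 7.84 middle bases. They were also encoded by more base sequences, 9.17 each against 1.02, which is partly fixed by the count, since each library can add one.

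The 5 leading shared CDR3s all used Trbj2-7, and the most abundant base sequence of each is shown for comparison with the tumor clones above, with middle bases in capitals.
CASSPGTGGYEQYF: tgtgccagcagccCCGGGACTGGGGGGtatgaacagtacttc
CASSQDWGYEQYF: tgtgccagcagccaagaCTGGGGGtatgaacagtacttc
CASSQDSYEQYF: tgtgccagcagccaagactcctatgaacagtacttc
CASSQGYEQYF: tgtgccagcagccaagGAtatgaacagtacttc
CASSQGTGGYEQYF: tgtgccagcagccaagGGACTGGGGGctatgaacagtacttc
The third, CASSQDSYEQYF, is the whole germline V end followed directly by the whole Trbj2-7 start, with 0 middle bases in this base sequence. Over all its base sequences the CDR3 had 1, 2, 0 and 0 UMIs in the tumors, 6, 6, 5 and 3 in the spleens and 7, 8, 6 and 4 in the tdLNs under BF10, αCSF1R, control IgG and IL-10-Fc. Each of the 5 stayed at 35 to 59 UMIs over all libraries, and each was absent from the control IgG tumor list, where a count of 0 allows a share of up to 0.00288% of TRBC UMIs. The dominant tumor clone, with 6 middle bases, was listed in 2 libraries, both of control IgG.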

How the data were processed

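TCR libraries of CD8+ T cells were made from 12 samples with the QIAseq immune repertoire kit, which primes on the constant regions. The authors grouped reads by UMI and assigned V, J and CDR3 in Qiagen's portal. Its version and germline reference are not given in the sources used here, and the submitters' processing notes name the build mm10. The deposited counts are UMIs per clonotype with at least 3 reads (and each higher minimum up to 7), not normalized. The authors also deposited a fraction, each clonotype's UMIs over the total of its library and chain, which was not used here.

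Shares were computed from TRBC counts with Python 3.11.15, numpy 2.4.6, pandas 2.3.3 and scipy 1.17.1, with 95% Wilson intervals. The intervals of the control IgG over BF10 tumor ratios are 95% intervals on the log scale. They treat UMIs as independent and also cover counting error only. The limit that a count of 0 allows was taken as 3 UMIs, 0.00142% to 0.00915% of TRBC UMIs. Since each treatment and tissue had 1 library, treatments were not tested. Tissues were compared over 4 treatments by exact sign-flip tests and by exact permutation of tissues within treatments. Germline parts came from GRCm38 with GENCODE M21. The longest run of germline V bases, then of J bases, was matched, and the rest is the middle. Named clonotypes are the largest V5 clonotype of each library, those with at least 0.1% of TRBC UMIs in tumors, the most widely listed CDR3s and the leading relatives of the dominant one. CDR3s of 15 or more residues are given by bases. The members, lists and tests were chosen with earlier results of these data known. The Wilson intervals, the sign-flip and tissue permutation tests and the expected clonotypes at equal UMI totals were checked on simulated or set values. The merging, the germline matching and the search for relatives were not. Alternatives were 7 reads per UMI, clonotypes of at least 2 UMIs, merging, residue-level clonotypes and equal UMI totals. Others were undetermined residues left out (75 V5 clonotypes), large clonotypes left out, and each treatment left out. A further one, UMI weighting, left out the largest TRBC clonotype of each library.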

Additional observations from a re-analysis of the deposited data

Results flagged for a closer look

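The V5 share of TRBC UMIs moved in opposite directions by tissue under 2 treatments. BF10 minus control IgG was -11.6 percentage points in tumors and 0.540 points in spleens. αCSF1R minus control IgG was -7.37 points in tumors and 0.136 points in spleens. The difference between tissues was not tested, as each value rests on 1 library per treatment. The counting intervals of the αCSF1R and control IgG spleens overlapped (2.75% to 2.92% and 2.62% to 2.78%). Counted by clonotypes, αCSF1R minus control IgG was -0.0658 points in spleens and 0.459 points in tumors, so both signs turned. In the tdLNs the V5 share under BF10 differed from control IgG by 0.120 points and under αCSF1R by 0.141 points. Without the largest clonotype of each library, the tumor differences were -1.37 points for BF10 and 3.18 points for αCSF1R, so the αCSF1R difference changed sign. Without all clonotypes of at least 0.1% of TRBC UMIs, the control IgG tumor share (4.04%) again lay above the αCSF1R one (3.58%).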

How the results depend on the processing

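Of the 100 recomputed values, 85 kept their direction and their side of the threshold or stayed within the counting interval. Of these, 9 counted ambiguous V assignments as V5, of which there were 0, and could not change, which leaves 76 of 91. The paired tests cannot pass the threshold with 4 treatments (smallest p 0.125), so staying on that side says nothing of stability. The tdLN excess of V5 stayed between 1.35 and 1.74 points of clonotypes and between 1.57 and 1.91 points of UMIs. It passed the threshold only in the unpaired test, at the unchanged 1.38 and 1.61 points, and no conclusion is drawn from that test. Leaving out a treatment gave 1.35 to 1.43 and 1.57 to 1.68 points. The longer CDR3s of V5 stayed between 0.578 and 0.623 residues. The difference in length among tissues stayed between 0.00721 and 0.124 residues, with UMI weighting run without the largest clonotype. Weighted over all V5 UMIs, the mean was 14.2 residues in tumors, 14.5 in spleens and 14.4 in tdLNs. The control IgG tumor library, with its dominant clone, then had 13.2 residues, so that range does not hold for all UMIs.

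The Trbj2 share did not keep its sign. V5 minus the other V regions, -0.170 points, became 0.179 with 7 reads per UMI and 0.526 with merging. It became 1.33 weighted by UMIs, with the largest TRBC clonotype of each library left out. Without tumor libraries, a setting chosen after seeing the data, it was 0.678. With a treatment left out it ran from -0.834 to 0.609 (0.609 without control IgG, 0.000498 without BF10). Spleen minus tumor, 4.72 points, became -1.14 with that weighting. It ran from 1.73 to 6.17 with a treatment left out, the lowest without control IgG. That weighting drops the dominant control IgG tumor clone, and with it kept Trbj1-2 held 77.4% of V5 UMIs in that library. The value of -1.14 thus does not describe all V5 UMIs.

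The control IgG over BF10 tumor ratio of 5.75 became 6.01 with 7 reads per UMI and 5.97 with at least 2 UMIs. Without the largest clonotype, 1.56 became 1.48 with merging and 1.65 without large clonotypes. The share within 1 residue of the dominant CDR3, 10.8%, became 10.6% and 11.0% with 7 reads and with at least 2 UMIs. The tissue tests were paired by treatment, as the labels number no replicates. The cause of these changes was not tested.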
